A study of Rattus norvegicus with 6 samples.

Results

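The potassium channel genes were taken as all genes whose symbol starts with Kcn, which gave 89 of the 30560 genes counted in single-nucleus RNA sequencing of rat brain. They were read in 6 libraries of male wild-type Wistar rats aged 12 weeks, taken 48 h after sham surgery or permanent middle cerebral artery occlusion (MCAO) with a filament in the right artery. Sham L and Sham R are the left and right hemispheres of 4 sham-operated rats. A moderate infarction in 3 rats gave mMCAO contra and mMCAO ipsi, and a severe one in 4 rats gave sMCAO contra and sMCAO ipsi. Where a group has a pair of values, Sham L stands before Sham R and the moderate before the severe pool. Each library was 1 pool of rats, so the 2 libraries of the Sham, MCAO contra or MCAO ipsi group are not single animals, and the hemispheres of a rat pool share their rats. Sham L and Sham R come from the same rats, and the 2 pools of an MCAO group also differ in severity. The p-values therefore measure the spread between these libraries, which for Sham is a spread between hemispheres and not between rats.

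Potassium channels let potassium ions out of cells, which sets the resting potential, ends the action potential and limits repetitive firing. The voltage-gated pore genes (Kcna to Kcnd), the M current genes (Kcnq) and the calcium-activated genes (Kcnma and Kcnn) act mainly in excitable cells, and silent subunits (Kcnf, Kcng, Kcns and Kcnv) only work inside channels of other subunits. Inward rectifiers (Kcnj) include the astrocyte channel that clears potassium released by neurons and the G protein-gated channels of neuronal inhibition, while two-pore channels (Kcnk) carry leak current. Auxiliary genes (Kcnab, Kcnip, Kcne and Kcnmb) change the gating or transport of the pores. In ischemic tissue, cells without energy lose their potassium gradient, and extracellular potassium rises.

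By role, the members were 15 Kv1 to Kv4 pore genes, 10 silent subunits, 4 Kcnq genes, 8 Kcnh genes of the EAG, ERG and ELK families, 8 calcium- or sodium-activated genes, 14 inward rectifiers, 14 two-pore genes, 15 auxiliary genes and Kcnrg. A gene was tested in a class only if it passed the filter on low counts there, and 69 members passed in at least 1 class. The other 20 are given by their UMIs (unique molecules counted) or not at all.

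The libraries held 8774 to 14508 nuclei and 33012945 to 52513380 UMIs. Markers that hold no Kcn gene assigned 36745 of the 73649 nuclei kept (49.9%) to a class, and their UMIs were summed per library and class. Levels are given as CPM, the UMIs of a gene relative to all UMIs of that class and library. Because intronic reads were counted and gene lengths differ, levels are compared between classes or libraries within a gene and not between genes. Of 70713 distinct barcodes, 3022 occurred in 2 or more libraries. In the glutamatergic class, 57.6% of nuclei lay near the limit of the gate. Neurons of sMCAO ipsi stood apart in depth: the median glutamatergic nucleus had 8872 UMIs there against 3530 to 5195 in the other libraries, and the median medium spiny nucleus had 5903 against 1938 to 3512.

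The classes differed in their potassium channel genes, and some genes were called higher in more than 1 class. Of 58 members tested across 7 classes with edgeR's quasi-likelihood test (adjusted p under 0.05 and a log2 difference of at least 1 from the mean of the other classes), 43 were higher and 1 lower in glutamatergic nuclei, 32 higher and 4 lower in medium spiny nuclei, and 32 higher and 2 lower in interneurons. In oligodendrocyte precursor cells (OPCs) 12 were higher and 7 lower, in oligodendrocytes 7 and 22, in astrocytes 7 and 26, and in the joined vascular class 3 and 44. Over all genes tested, the shares called higher and lower were 15.3% and 11.7% in glutamatergic nuclei, 14.1% and 15.0% in medium spiny nuclei, 12.5% and 9.99% in interneurons, 9.78% and 7.03% in OPCs, 13.4% and 16.4% in oligodendrocytes, 17.2% and 11.7% in astrocytes, and 20.5% and 19.8% in the vascular class. The gene family thus leaned to the 3 neuron classes. Glial nuclei also held free neuronal RNA, whose shares are given with the glial classes. With it subtracted, 56 members were tested, and 45 were higher and 1 lower in glutamatergic nuclei, 40 and 2 in medium spiny nuclei, 46 and 1 in interneurons, 17 and 10 in OPCs, 8 and 25 in oligodendrocytes, 9 and 17 in astrocytes and 3 and 34 in the vascular class. The shares of all genes called in either direction were then 31.5%, 32.5%, 26.5%, 21.5%, 32.8%, 28.6% and 38.8% in the same order.

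In glutamatergic nuclei the 5 largest differences from the mean of the other classes were those of the silent subunits Kcng1 and Kcnv1, the two-pore genes Kcnk9 and Kcnk12, and Kcnj6, a G protein-gated rectifier. Only members with at least 20 UMIs in every library of the class were ranked. Kcnj6 had 307 to 458 CPM in glutamatergic nuclei, 163 to 209 CPM in interneurons and 14.8 to 42.5 CPM in medium spiny nuclei, with no overlap between the 3 classes. Of these 5, Kcng1 showed the highest log2 difference from the other classes (4.25 ± 0.25 SE, edgeR adjusted p = 1.16e-18), at 18.0 to 31.2 CPM. Kcnk9 had 8.68 to 22.0 CPM there and 11.8 to 22.3 CPM in interneurons, so it did not separate these 2 classes. Kcnip1, an auxiliary subunit of A-type channels, was the single member lower in this class, with 4.75 to 14.1 CPM.

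Medium spiny nuclei, the projection neurons of the striatum, were marked by a different set. Kcnh4, an ELK-family pore gene, had 35.4 to 69.5 CPM there and 8.23 to 17.3 CPM in glutamatergic nuclei (log2 difference from the other classes 4.14 ± 0.17 SE, edgeR adjusted p = 1.1e-25). Kcna4, the pore of a fast inactivating current, had 93.4 to 151 CPM against 30.1 to 48.5 CPM in glutamatergic nuclei. Kcnip2, which joins Kv4 pores, had 174 to 296 CPM against 24.8 to 44.5 CPM. The silent subunit Kcng3 and the strong inward rectifier Kcnj4 completed the 5 leading genes under the same limit on UMIs. Kcnd2, the main A-type pore, was also highest in this class, with 6397 to 7363 CPM against 1755 to 2398 CPM in glutamatergic nuclei.

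In interneurons the 5 largest differences under that limit were those of Kcns3, Kcnip1, Kcnc2, Kcnc1 and Kcnh8, of which Kcnh8 was higher still in OPCs. Kcnc1 and Kcnc2 encode the fast pores that let neurons fire at high rates. Kcnc2 had 958 to 1143 CPM in interneurons, 240 to 331 CPM in glutamatergic nuclei and 46.0 to 105 CPM in medium spiny nuclei. Kcns3, a silent subunit, had 19.6 to 23.6 CPM in interneurons and no more than 1.44 CPM in either other neuron class. The interneuron classes named by Pvalb and Sst held too few nuclei for a comparison, so nuclei with Lhx6 were compared with nuclei with Adarb2.

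**Figure D1:**
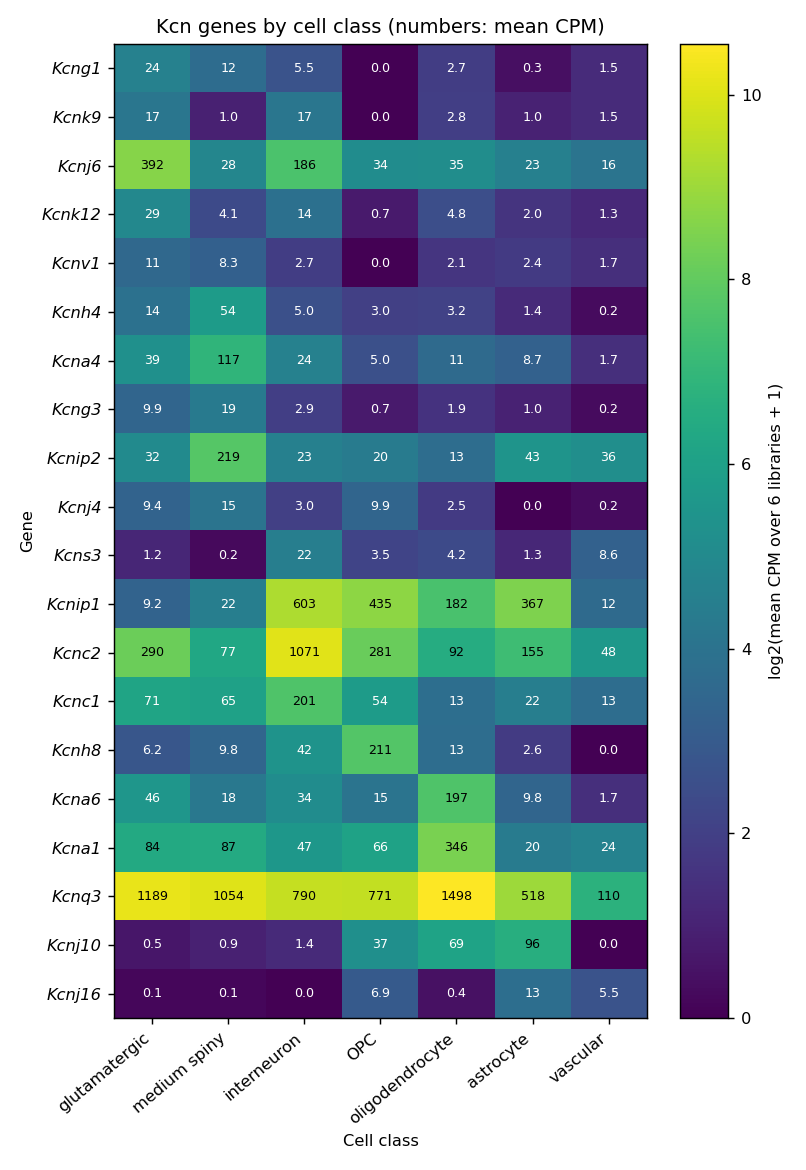
Kcn genes by cell class: each row is a gene, each column a class, the number is the mean CPM over the 6 libraries and the colour is log2 of that mean plus 1. Neuronal genes such as Kcng1, Kcnh4 and Kcnc2 peak in 1 of the 3 neuron classes, and Kcna1, Kcna6 and Kcnj10 peak in glia.

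Within the neuron classes, layer identity separated more members than the dopamine receptor type. Between upper layer and layer 6 glutamatergic nuclei, 13 of 53 members were higher and 8 lower in the upper layers (adjusted p under 0.05 and log2 difference of at least 0.6, against 16.9% of all genes called). Kcnq5, an M current pore, had 2709 to 3437 CPM in upper layer nuclei and 977 to 1251 CPM in layer 6 nuclei (log2 difference 1.53 ± 0.07 SE, edgeR adjusted p = 3.58e-10). Kcnab1, an auxiliary beta subunit, had 61.3 to 157 CPM in the upper layers and 475 to 650 CPM in layer 6. The calcium-activated gene Kcnn3 went the same way, with 20 to 44.1 CPM against 102 to 133 CPM. None of these 3 ranges overlapped.

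Between D1 and D2 medium spiny nuclei, 1 of 38 members was higher in D1 (Kcnk13) and 3 were higher in D2 (Kcnd3, Kcnt2 and Kcnk4), against 3.61% of all genes called. Kcnk13, a two-pore leak channel, had 27.3 to 76.9 CPM in D1 and 3.54 to 23.1 CPM in D2 nuclei (log2 difference 2.30 ± 0.22 SE, edgeR adjusted p = 6.19e-11). In each library D1 nuclei had the higher value, although the ranges come from 3 to 44 UMIs a library. Between Lhx6 and Adarb2 interneurons, 8 of 30 members were higher and 7 lower in Lhx6 nuclei (14.6% of all genes called). Kcnc2 had 1337 to 2105 CPM in Lhx6 nuclei and 761 to 950 CPM in Adarb2 nuclei, whereas Kcnq5 had 255 to 689 CPM in Lhx6 nuclei and 3190 to 4060 CPM in Adarb2 nuclei. Among members with at least 20 UMIs in every library of the higher type, Kcnq5 had the largest difference in that pair (log2 difference -3.05 ± 0.13 SE, edgeR adjusted p = 1.76e-15).

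After MCAO, with all 6 libraries as counted, no member was called higher in the ipsilateral hemisphere than in Sham in any of the 7 classes, and 50 gene and class pairs over 24 different genes were called lower (edgeR's quasi-likelihood test, adjusted p under 0.05 over all genes and a log2 fold change of at least 0.6). The count was 10 of 68 members in glutamatergic nuclei, 9 of 55 in medium spiny nuclei, 0 of 50 in interneurons, 4 of 25 in OPCs, 12 of 41 in oligodendrocytes, 13 of 21 in astrocytes and 2 of 7 in the vascular class. Over all genes the shares called higher and lower were 3.09% and 2.23% in glutamatergic nuclei, 2.04% and 2.02% in medium spiny nuclei, 0.414% and 0.212% in interneurons, 1.41% and 2.7% in OPCs, 1.49% and 4.63% in oligodendrocytes, 7.79% and 6.83% in astrocytes, and 0.838% and 1.37% in the vascular class. The median log2 fold change of the tested members was -0.22 in glutamatergic and -0.31 in medium spiny nuclei, where that of all genes was 0.01 in both. In oligodendrocytes it was -1.50 and in astrocytes -1.25, against 0.03 in both for all genes. In the nuclear RNA of a pool, loss of the cells that express a gene and lower expression in each cell cannot be told apart. The calls depended on single libraries: 9 pairs were lower without Sham L, 21 without Sham R, 33 without mMCAO contra and 84 without mMCAO ipsi. The absence of higher calls also depended on them, since 8 pairs were higher without mMCAO ipsi, 1 without sMCAO contra and 1 without sMCAO ipsi. Without the filter on low counts 70 pairs were lower and 6 higher. The shares of all genes called in these fits are not given here or by class below. The counts are therefore not read as a result about the members.

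**Figure D2:**
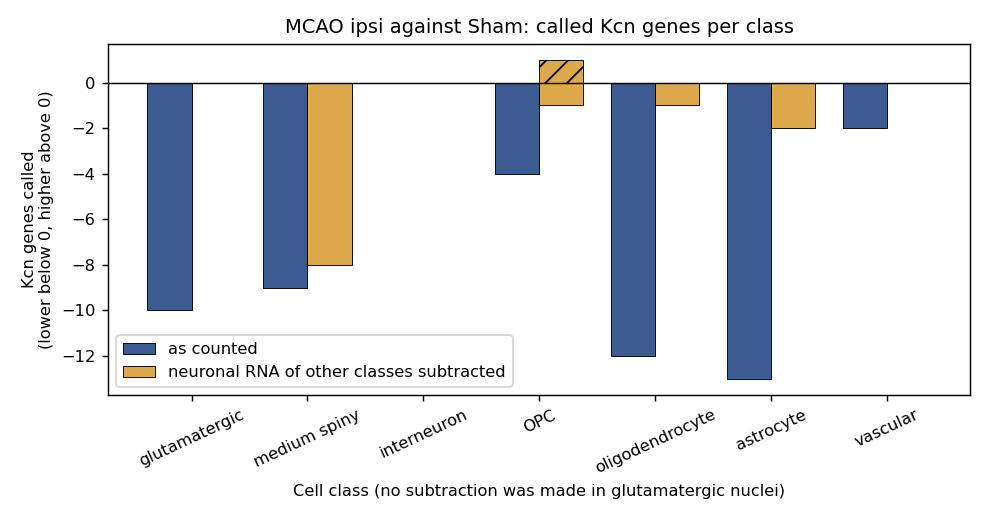
Number of Kcn genes called in MCAO ipsi against Sham per cell class, lower below 0 and higher above 0, as counted and after subtraction of neuronal RNA of other classes. As counted, astrocytes had 13 of 21 and oligodendrocytes 12 of 41 tested genes lower. After subtraction by the list it was 2 of 12 and 1 of 19, where fewer genes passed the filter. The 9 of 55 in medium spiny nuclei became 8 of 55.

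In glutamatergic nuclei the genes that fell belonged to several roles: 2 two-pore genes, 2 calcium-activated genes, 2 auxiliary genes and 1 each of the Kcnq, Kcnh, silent and inward rectifier genes. None of the 13 Kv1 to Kv4 pore genes was called, and 8 of them were fitted below 0. With 2.23% of all genes called lower, the absence of calls does not set these pore genes apart. Kcnk4, a mechanically gated two-pore leak channel, had 78.7 and 83.1 CPM in Sham, 105 and 95.4 CPM in MCAO contra, and 44.4 and 43.4 CPM in MCAO ipsi. Both ipsilateral libraries thus lay well below the other 4, and the log2 fold change against Sham was -0.98 ± 0.09 SE (edgeR adjusted p = 0.00249). Kcnh4 had 17.3 and 17.1 CPM in Sham, 16.9 and 17.0 CPM in MCAO contra and 8.23 CPM in both ipsilateral libraries (log2 fold change -1.17 ± 0.13 SE, edgeR adjusted p = 0.00472). Its 4 other libraries were nearly level.

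Kcnq3, an M current pore, had 1434 and 1368 CPM in Sham, 1178 and 1205 CPM in MCAO contra, and 1005 and 946 CPM in MCAO ipsi (log2 fold change -0.63 ± 0.09 SE, edgeR adjusted p = 0.0103). Here the contralateral libraries lay between the other groups. The same order was seen for the SK channel genes: Kcnn2 had 398 and 420 CPM in Sham, 347 and 339 CPM in MCAO contra and 295 and 271 CPM in MCAO ipsi, and Kcnn1 had 6.98 and 7.88, 6.46 and 5.60, and 3.78 and 3.61 CPM. SK channels carry a calcium-activated current that follows spikes. Kcnab2, a beta subunit of axonal channels, had 152 and 155 CPM in Sham, 171 and 184 CPM in MCAO contra and 109 and 85.0 CPM in MCAO ipsi. The auxiliary gene Kcne2 fell by 0.62 on the log2 scale and the silent subunit Kcng1 by 0.73.

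Every one of these glutamatergic calls was lost without either Sham library, where 1 Sham library remained, and the fit without mMCAO ipsi called 19 lower and 3 higher. The values of Kcnk4 without Sham L and without Sham R were -1.01 and -0.95. When the layer types were fitted alone, upper layer nuclei had 5 members lower (Kcnh4, Kcnk4, Kcnn2, Kcnq3 and Kcnab2) and 1 higher of 54, with 2.18% of all genes called. Layer 6 nuclei had 1 lower (Kcnk4) and 1 higher of 53, close to the 2.07% of all genes called there. The 2 that rose were not called in the whole class. Kcnk2, a two-pore channel opened by stretch and lipids, had 33.0 and 27.7 CPM in Sham, 44.6 and 42.2 CPM in MCAO contra and 72.8 and 69.9 CPM in MCAO ipsi in upper layer nuclei (log2 fold change 1.11 ± 0.18 SE, edgeR adjusted p = 0.0187). Kcnq1 rose in layer 6 nuclei by a log2 fold change of 1.18 ± 0.28 SE (edgeR adjusted p = 0.0407), from 12.1 and 7.64 CPM in Sham to 22.5 and 27.2 CPM in MCAO ipsi, while the contralateral libraries had 17.1 and 25.4 CPM.

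**Figure D3:**
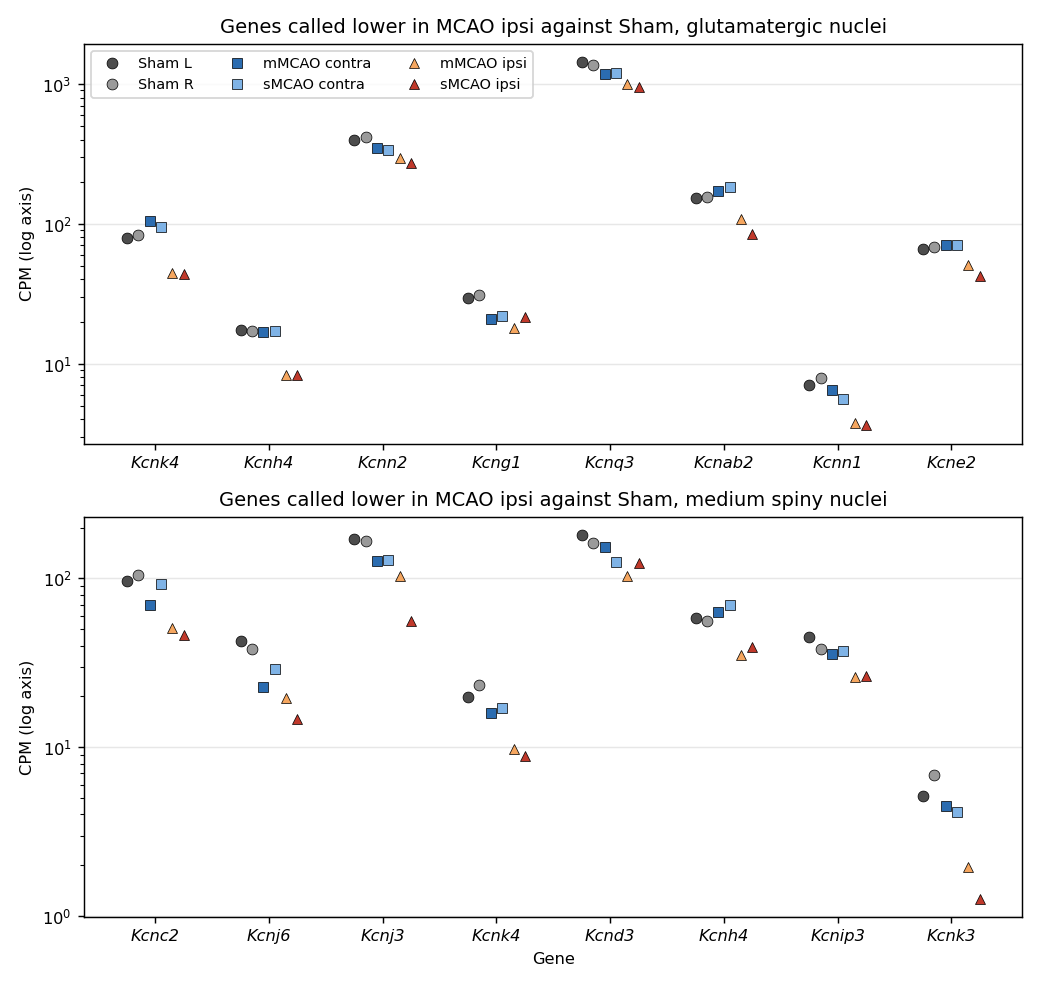
CPM (log axis) of the 8 genes with the smallest p among those called lower in MCAO ipsi against Sham, in glutamatergic nuclei above and medium spiny nuclei below, with 1 point per library. Both ipsilateral libraries (triangles) lie below both Sham libraries (circles) for every gene, for Kcnk4 in glutamatergic nuclei at 44.4 and 43.4 against 78.7 and 83.1 CPM.

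In medium spiny nuclei the 9 genes that fell were 2 Kv pores (Kcnc2 and Kcnd3), 2 G protein-gated rectifiers (Kcnj3 and Kcnj6), 2 two-pore genes (Kcnk3 and Kcnk4), Kcnh4 and 2 auxiliary genes (Kcnip1 and Kcnip3). Kcnc2 had 96.8 and 105 CPM in Sham, 69.5 and 92.4 CPM in MCAO contra, and 50.6 and 46.0 CPM in MCAO ipsi. The groups did not overlap, and the log2 fold change against Sham was -1.12 ± 0.14 SE (edgeR adjusted p = 0.000463). Kcnj3 had 171 and 166 CPM in Sham, 127 and 128 CPM in MCAO contra, and 103 and 56.1 CPM in MCAO ipsi (log2 fold change -1.13 ± 0.17 SE, edgeR adjusted p = 0.0019). Kcnj6, its partner in G protein-gated channels, had 42.5 and 38.1, 22.8 and 29.1, and 19.5 and 14.8 CPM in the same order. In both rectifier genes the severe ipsilateral library was the lowest.

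Kcnd3, an A-type pore, and Kcnip3, a calcium-binding partner of such pores, fell by 0.66 and 0.73 on the log2 scale. Both calls were lost without Sham L, at -0.58 and -0.59, as were those of Kcnh4 (-0.63) and Kcnk3 (-2.11), and that of Kcnd3 also without mMCAO ipsi (-0.56). The call of Kcnk3 was lost too without Sham R and without sMCAO ipsi, at -1.72 and -1.65. Without sMCAO ipsi Kcnj3 was still called, at -0.76. Kcnk3, an acid-sensitive leak channel, was at 5.16 and 6.88 CPM in Sham and 1.95 and 1.27 CPM in MCAO ipsi. Fitted alone, D1 nuclei had 4 members lower (Kcnc2, Kcnj3, Kcnj6 and Kcnq3) and D2 nuclei 4 (Kcnc2, Kcnj3, Kcnip3 and Kcnk4), so that Kcnc2 and Kcnj3 were called in both types. The shares of all genes called were 1.6% in D1 and 1.81% in D2 nuclei. Kcnj3 had 146 and 161 CPM in Sham and 52.7 and 32.3 CPM in MCAO ipsi in D1 nuclei, and 155 and 196 CPM in Sham and 106 and 43.4 CPM in MCAO ipsi in D2 nuclei. DESeq2 called 5 of the 55 members lower in the whole class, with 1.75% of all genes called.

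RNA of glutamatergic neurons differed between the libraries here, and in mMCAO ipsi it stood close to Sham. From Slc17a7, a vesicular glutamate transporter that medium spiny neurons should lack and that the gate itself uses, its share in medium spiny nuclei was 6.13% and 5.92% in Sham, 2.27% and 2.19% in MCAO contra, and 5.58% and 0.93% in MCAO ipsi, from 4 to 43 UMIs a library. With that share subtracted, 8 of 55 members were called lower, against 1.63% of all genes called lower. These 8 were among the 9 called before. The call of Kcnj6, far higher in glutamatergic nuclei, was lost, at a log2 fold change of -1.33 ± 0.61 SE (edgeR adjusted p = 0.242). RNA of interneurons, where Kcnc2 and Kcnip1 are high, was not estimated and its part was not tested. Leaving out the deepest 5% of nuclei gave 9 members lower in glutamatergic nuclei, and 9 lower and 1 higher in medium spiny nuclei.

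The lower genes of both neuron classes had 3 members in common, Kcnk4, Kcnh4 and Kcnk3, which is 3 of the 10 glutamatergic and 3 of the 9 medium spiny genes. Over all genes, 312 were called lower in glutamatergic and 225 in medium spiny nuclei. How many of these were shared was not counted, so the overlap of the members cannot be called large or small. The difference of the fold changes was tested by the interaction of class and group, where 1.53% of all genes were called. It was past the threshold for 3 members, all with the greater fall in medium spiny nuclei: Kcnj3 (1.16 ± 0.17 SE, edgeR adjusted p = 0.00319), Kcnc2 (1.01 ± 0.16 SE, edgeR adjusted p = 0.00541) and Kcnj6 (0.80 ± 0.18 SE, edgeR adjusted p = 0.0424). These differences were taken as counted, with no glutamatergic RNA subtracted. In glutamatergic nuclei Kcnj3 had 603 and 586 CPM in Sham and 654 and 631 CPM in MCAO ipsi, and Kcnc2 had 272 and 297 CPM in Sham and 331 and 240 CPM in MCAO ipsi. Both groups overlapped there for Kcnc2 and lay close for Kcnj3.

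Of the 3 members lower in both projection neuron classes, Kcnk4 and Kcnh4 are shown with the 250 bases before their start, and Kcnk3 is not shown. The sequences are from RefSeq on build GRCr8, whose coordinates are not those of the deposited counts, and capitals mark a GC box (GGGCGG or its complement CCGCCC on the other strand).
Kcnk4, chr1:213555862-213556111, minus strand: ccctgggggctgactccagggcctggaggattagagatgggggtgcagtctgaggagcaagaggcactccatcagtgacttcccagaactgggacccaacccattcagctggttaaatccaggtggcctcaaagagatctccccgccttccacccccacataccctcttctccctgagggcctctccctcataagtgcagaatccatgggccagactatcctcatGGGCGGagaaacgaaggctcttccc
Kcnh4, chr10:86188477-86188726, minus strand: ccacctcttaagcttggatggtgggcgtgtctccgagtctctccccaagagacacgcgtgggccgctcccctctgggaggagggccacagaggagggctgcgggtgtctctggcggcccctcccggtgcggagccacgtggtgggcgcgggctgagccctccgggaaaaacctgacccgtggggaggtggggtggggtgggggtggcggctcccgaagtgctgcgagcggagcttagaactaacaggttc
A GC box was found in 34 of the 70 Kcn promoters matched (48.6%) and in 30.5% of 33469 promoters, once in that of Kcnk4 and not in that of Kcnh4. The cyclic AMP response element TGACGTCA, the same on both strands, was found in 0 of the 70 and in 1.59% of all promoters. These matches describe the letters only.

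In interneurons, 15 of 50 members had an unadjusted p under 0.05, and neither edgeR nor DESeq2 called any after adjustment. Few genes of any kind were called there, 0.626% of all genes by edgeR and 0.182% by DESeq2. The absence of calls among 50 members is close to these shares and does not set the members apart. The median log2 fold change of the members was -0.18 there. Kcnc1 in interneurons ranged from 163 to 261 CPM over all libraries.

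Against the contralateral hemisphere of the same rats, 4 members were lower in glutamatergic nuclei (Kcnk4, Kcnh4, Kcnab2 and Kcnh3), where 3.17% of all genes were called in either direction. This comparison shares the ipsilateral libraries with the one against Sham. In medium spiny nuclei 3 were lower (Kcnh4, Kcnc2 and Kcnj3) and Kcnk13 was higher, with 2.53% of all genes called. Kcnk13 had 26.5 and 33.5 CPM in Sham, 23.8 and 26.7 CPM in MCAO contra, and 47.1 and 46.0 CPM in MCAO ipsi (log2 fold change against contra 0.89 ± 0.15 SE, edgeR adjusted p = 0.00522). Both ipsilateral libraries lay above the other 4, but against Sham the log2 fold change of 0.58 ± 0.15 SE was under the limit of 0.6. Without mMCAO contra the call against contra was lost, at a log2 fold change of 0.79. That of Kcnj3 (-0.68 with all libraries) was lost when any 1 library other than mMCAO ipsi was left out, and without sMCAO ipsi its log2 fold change was -0.31. The call of Kcnc2 was lost without sMCAO contra, at -0.53, and that of Kcnh4 held in all 6 such fits. In interneurons 0 members were called by edgeR or DESeq2, with 9 at an unadjusted p under 0.05 and 0.131% of all genes called.

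In glia, free neuronal RNA moved with the groups. Its share was estimated from 14 neuron genes, among them Rbfox3 and Snap25, as their CPM in a class over their CPM in the neurons of the same library. In astrocytes it was 28.7% and 28.5% in Sham, 11.4% and 14.5% in MCAO contra, and 8.60% and 4.65% in MCAO ipsi. In oligodendrocytes it was 28.0% and 27.9%, 14.0% and 15.7%, and 12.0% and 4.24%. In OPCs it was 43.8% and 32.8%, 25.2% and 23.5%, and 20.4% and 14.6%, and in the vascular class 17.9% and 13.8%, 10.5% and 13.8%, and 8.82% and 5.01%. In each of these classes the highest share was in a Sham library and the lowest in sMCAO ipsi. By Rbfox3 alone the share was lower in the Sham libraries, at 12.7% and 8.58% in astrocytes and 19.3% and 13.0% in OPCs. In astrocytes it was then 6.59% and 5.92% in MCAO contra and 2.05% and 1.54% in MCAO ipsi. In OPCs it was 18.9% and 17.2% in MCAO contra, within the range of Sham, and 11.1% in both MCAO ipsi libraries. The step from Sham to MCAO contra in OPCs was thus seen by the list only. Which estimate is nearer was not tested over all genes. For Kcnip4 in astrocytes and OPCs the share of the list was too high, as given below.

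Set against the level that this share alone would give, some glial members lay above and others at the level of free RNA. Of the members with at least 20 UMIs, the lower end of the counting interval lay above the free level in all 6 libraries for 11 of 48 in oligodendrocytes, 9 of 36 in astrocytes and 8 of 29 in OPCs. The oligodendrocyte genes included Kcna1, Kcna6, Kcne2, Kcne4, Kcnh5, Kcnh8, Kcnip1, Kcnj10, Kcnj2 and Kcnq3. The astrocyte genes were Kcnc2, Kcnd2, Kcne2, Kcnip1, Kcnj10, Kcnma1, Kcnn2, Kcnn3 and Kcnq3, and the OPC genes were Kcnc2, Kcnd2, Kcnh8, Kcnip1, Kcnip3, Kcnj10, Kcnk10 and Kcnn2. Kcnip1 and Kcnj10 were in all 3 lists. On the other side, Kcnip4 and Kcnq5 were at or below the free level in all 6 libraries in astrocytes and oligodendrocytes. Kcnip4 in astrocytes had 3102 and 3118 CPM in Sham, where free RNA would give 3860 and 3780 CPM, and 88.5 CPM in sMCAO ipsi, where it would give 500 CPM. In OPCs Kcnip4 was also below the free level, at 2558 and 2373 CPM in Sham where the share would give 5890 and 4350 CPM. In both classes the share of the list was thus too high for this gene, and its subtraction exceeded what was counted.

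**Figure D4:**
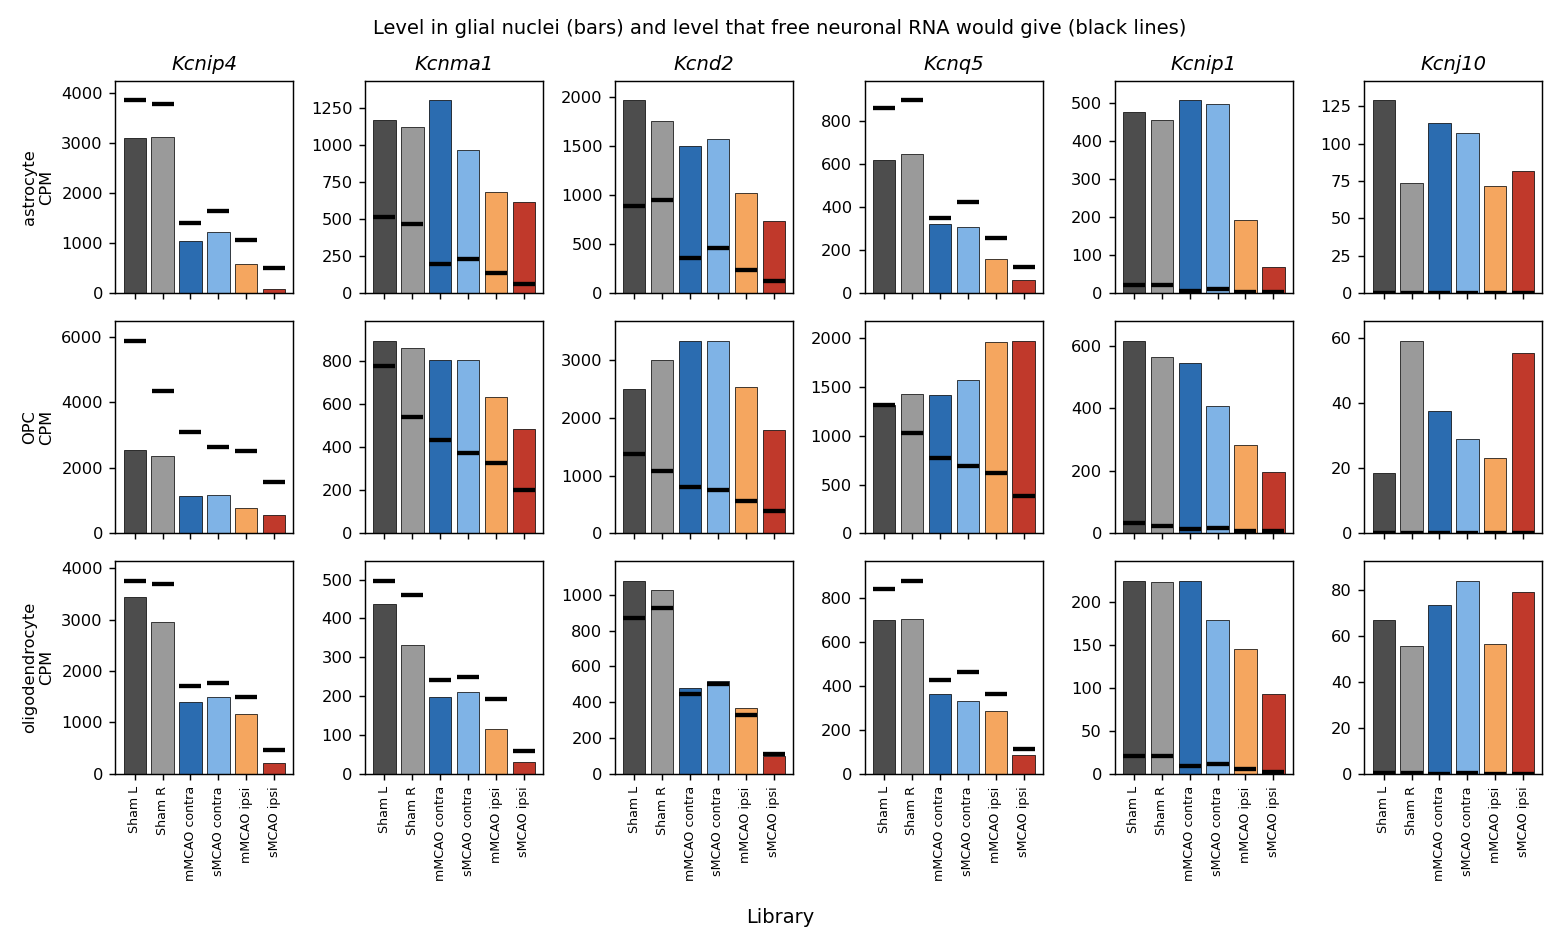
CPM (linear axis from 0, its own scale in each panel) of 6 Kcn genes in astrocytes, OPCs and oligodendrocytes, with 1 bar per library and a black line at the level that free neuronal RNA alone would give. Kcnip4 in astrocytes lies under the line in every library and goes from 3102 to 88.5 CPM, while Kcnip1 stands far above the line in all 3 classes.

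Oligodendrocytes were the class of the axonal channel genes Kcna1 and Kcna6 and of Kcnq3. Kcna1 had 345 and 327 CPM in Sham, 337 and 370 CPM in MCAO contra and 340 and 356 CPM in MCAO ipsi, where free RNA would give 3.53 to 22.4 CPM. The 6 libraries were level, with a log2 fold change of MCAO ipsi against Sham of 0.05 ± 0.14 SE (edgeR adjusted p = 0.905). Kcna6 ranged from 108 CPM in Sham R to 301 CPM in sMCAO contra. Kcnq3 had 1217 to 1735 CPM, above glutamatergic nuclei (946 to 1434 CPM) in the 4 MCAO libraries and below them in both Sham libraries.

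Of the 12 members lower in oligodendrocytes as counted, 1 was called with free RNA subtracted, of 19 that then passed the filter and with 0.816% of all genes called. It was Kcnh5, an EAG-family pore, at 149 and 179 CPM in Sham, 85.7 and 102 CPM in MCAO contra, and 72.5 and 44.8 CPM in MCAO ipsi (log2 fold change after subtraction -1.66 ± 0.27 SE by edgeR). Free RNA would give 61.0 and 57.1 CPM of that gene in Sham. With the share by Rbfox3, 3 of 28 were called lower (Kcnab1, Kcnh5 and Kcnma1), with 1.64% of all genes called. Kcnab1 had 194 and 201 CPM in Sham where free RNA would give 204 and 226 CPM. Kcnip1 had 225 and 223 CPM in Sham, 225 and 179 CPM in MCAO contra and 145 and 92.6 CPM in MCAO ipsi, far above a free level of 2.31 to 21.0 CPM, and was called as counted (-0.95 ± 0.22 SE, edgeR adjusted p = 0.0397). After subtraction the fall was no smaller, at -1.16 ± 0.24 SE, but missed the threshold (edgeR adjusted p = 0.0649). As counted, 0 members were called without Sham L, without Sham R or with only the 2 groups compared, and 2 were called without mMCAO contra or without sMCAO contra. Without mMCAO ipsi 26 were lower and 2 higher.

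Astrocytes held Kcnj10, the inward rectifier that buffers potassium around synapses and vessels. It had 129 and 73.5 CPM in Sham, 114 and 107 CPM in MCAO contra, and 71.7 and 81.5 CPM in MCAO ipsi, from 5 to 81 UMIs a library, where free RNA would give 0.0375 to 0.233 CPM. Its groups overlapped (log2 fold change -0.48 ± 0.36 SE, edgeR adjusted p = 0.454), and in oligodendrocytes it had 55.8 to 84.0 CPM (0.13 ± 0.25 SE, edgeR adjusted p = 0.838). Its partner Kcnj16 had 0 UMIs in both Sham libraries, 5 and 3 in MCAO contra and 9 and 20 in MCAO ipsi, and was not tested. The class itself held 132161 and 67996 UMIs in Sham, 281660 and 168482 in MCAO contra, and 418613 and 994359 in MCAO ipsi. No change of Kcnj16 is read from these counts.

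Of the 13 members lower in astrocytes as counted, 2 were called with free RNA subtracted, Kcnip1 and Kcnd2. Only 12 members then passed the filter, and 10.1% of all genes were called. Kcnip1 had 477 and 456 CPM in Sham, 508 and 499 CPM in MCAO contra, and 193 and 70.4 CPM in MCAO ipsi, where free RNA would give 2.53 to 21.6 CPM. Both ipsilateral libraries lay far below the other 4, by a log2 fold change against Sham of -1.94 ± 0.36 SE as counted (edgeR adjusted p = 0.00226) and -2.22 ± 0.39 SE after subtraction. Kcnd2, the pore that Kcnip1 joins, had 1975 and 1765 CPM in Sham, 1498 and 1585 CPM in MCAO contra, and 1022 and 743 CPM in MCAO ipsi, and free RNA would give 896 and 949 CPM in Sham (-1.10 ± 0.20 SE as counted and -0.77 ± 0.22 SE after subtraction). With the share by Rbfox3, 5 of 20 members were called lower (Kcnip1, Kcnd2, Kcnma1, Kcnh7 and Kcnq5), with 9.25% of all genes called. Of these, Kcnh7 and Kcnq5 had no library with the counting interval above the free level of the whole list. Without Sham L the calls of Kcnip1 and Kcnd2 were lost, at -1.84 and -0.96, and the count of astrocyte members called fell to 3. It was 8 without Sham R. The state of the class moved with these groups and its part was not tested. Gfap, a marker of reactive astrocytes and of the gate, had 272 and 412 CPM in Sham, 614 and 1424 CPM in MCAO contra, and 3344 and 4972 CPM in MCAO ipsi. Cd44, another reactive marker, had 0 and 1 UMIs in Sham, 8 and 12 in MCAO contra, and 188 and 579 in MCAO ipsi, and Vim had 0 and 0, 0 and 6, and 91 and 748. Gpc5, high in resting astrocytes, had 15549 and 14089 CPM in Sham, 18181 and 15586 CPM in MCAO contra, and 11122 and 7284 CPM in MCAO ipsi, and Trpm3 ranged from 1884 CPM in sMCAO ipsi to 3447 CPM in mMCAO contra. The median astrocyte nucleus had 755 and 598 UMIs in Sham and 1343 and 2473 in MCAO ipsi.

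Against contra, 8 members were lower in astrocytes (13.0% of all genes called), led by Kcnip1 at -2.04 ± 0.33 SE (edgeR adjusted p = 0.000895). Kcnma1, the BK channel, had 1296 and 967 CPM in MCAO contra and 683 and 612 CPM in MCAO ipsi (-0.82 ± 0.19 SE, edgeR adjusted p = 0.0111), above its free level in all 6 libraries. With the replicate block of rat pools the count was 9. In oligodendrocytes 0 members were called by edgeR (0.0218% of all genes) or DESeq2, with 13 at an unadjusted p under 0.05, and 2 with the block, Kcnip1 (-0.80) and Kcnma1 (-1.74).

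OPCs carried Kcnh8, an ELK-family pore, at 140 to 331 CPM, against 21.8 to 68.9 CPM in interneurons and at most 29.8 CPM in oligodendrocytes. The two-pore gene Kcnk10 had 93.4 and 119 CPM in Sham, 117 and 124 CPM in MCAO contra, and 185 and 251 CPM in MCAO ipsi, from 4 to 104 UMIs, and was not called (log2 fold change against Sham 1.14 ± 0.45 SE, edgeR adjusted p = 0.174). Of the 4 members lower than in Sham, Kcnip4, Kcnip1, Kcnj3 and Kcnh5, the call of Kcnip1 held with free RNA subtracted by either share (2 of 18 members called with 0.826% of all genes by the list, and 2 of 20 with 1.45% by Rbfox3). Kcnip1 in OPCs had 616 and 564 CPM in Sham, 545 and 407 CPM in MCAO contra and 282 and 196 CPM in MCAO ipsi, where free RNA would give 7.92 to 32.9 CPM (-1.33 ± 0.28 SE as counted, edgeR adjusted p = 0.00257, and -1.53 ± 0.33 SE after subtraction). The groups did not overlap. The call was lost without Sham L and without sMCAO ipsi, at -1.08 and -0.99, and Sham held only 58 and 49 OPC nuclei. Cell states within the OPC and oligodendrocyte classes were not read, and their part in the falls there was not tested.

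The other OPC gene called after subtraction was Kcnq5, and it was higher. As counted it had 1307 and 1424 CPM in Sham, 1413 and 1571 CPM in MCAO contra, and 1954 and 1972 CPM in MCAO ipsi, and the log2 fold change of 0.56 ± 0.19 SE was not called (edgeR adjusted p = 0.0897). Both ipsilateral libraries lay above the other 4. Free RNA by the list would give 1310 CPM in Sham L and 381 CPM in sMCAO ipsi, so the size after subtraction depended on the share: 3.05 ± 0.50 SE by the list (edgeR adjusted p = 0.00462) and 0.97 ± 0.22 SE by Rbfox3 (edgeR adjusted p = 0.0289). In Sham the counts before subtraction were 70 and 48 UMIs. In Sham L the level of the list was about that counted, so its subtraction left almost nothing of Kcnq5 there.

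The fold changes of OPCs and astrocytes differed for 5 members in the interaction of class and group as counted (2.66% of all genes called), all higher in OPCs: Kcnq5 (3.36 ± 0.36 SE, edgeR adjusted p = 2.04e-07), Kcnh7 (2.72 ± 0.42 SE, edgeR adjusted p = 4.85e-05), Kcnip4 (1.96 ± 0.39 SE, edgeR adjusted p = 0.00133), Kcnq3 (1.33 ± 0.35 SE, edgeR adjusted p = 0.0254) and Kcnh1 (3.48 ± 0.97 SE, edgeR adjusted p = 0.0414). Free neuronal RNA fell in both classes, and with it subtracted 1 member was called by the list (Kcnq3) and 2 by Rbfox3 (Kcnq5 and Kcnh7). Kcnh7, an ERG-family pore, had 952 and 712 CPM in Sham and 648 and 411 CPM in MCAO ipsi in OPCs, against 401 and 441 CPM and 90.8 and 16.1 CPM in astrocytes. Against contra, 5 members were lower in OPCs (Kcnip1, Kcnip4, Kcnh8, Kcnd2 and Kcnt2, with 3.98% of all genes called), of which Kcnh8 went from 331 and 255 CPM in MCAO contra to 157 and 140 CPM in MCAO ipsi. All 5 calls were lost without mMCAO contra and all 5 without sMCAO ipsi, where Kcnt2 went from -1.21 to -0.71 and Kcnd2 from -0.65 to -0.40, and DESeq2 called 2.

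In the vascular class, which joins endothelial, mural and fibroblast nuclei, the 2 members lower than in Sham were Kcnip4 and Kcnma1. Kcnip4 had 2204 and 1748 CPM in Sham, where free RNA would give 2410 and 1830 CPM, and 137 CPM in sMCAO ipsi, where it would give 538 CPM. No member was called after subtraction by the list (0 of 1 member tested, 1 of them at an unadjusted p under 0.05, and 0.997% of all genes called) or by Rbfox3 (0 of 5 members, 1 at an unadjusted p under 0.05, and 0.0% of all genes). Against contra, 0 of 7 were called by edgeR (0.0381% of all genes) or DESeq2, with 2 at an unadjusted p under 0.05. The makeup of the class moved with the groups: it held 43 and 32 nuclei in Sham, of which 3 and 4 were fibroblasts, and 363 in sMCAO ipsi, of which 144 were fibroblasts. In endothelial nuclei alone 3 of 5 members were called lower (5.21% of all genes called), Kcnip4 and Kcnma1 among them.

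Some members were found in classes too small in Sham for a test. Myeloid nuclei numbered 2 in each Sham library, 122 and 78 in MCAO contra, and 672 and 1364 in MCAO ipsi. Kcnk13, a leak channel of microglia, had 40 and 22 UMIs in MCAO contra and 296 and 603 UMIs in MCAO ipsi, which is 399 and 375 CPM and 449 and 352 CPM, so its level within the class lay between 352 and 449 CPM in these 4 libraries. Kcna3, a voltage-gated pore of immune cells, had 1, 9, 64 and 234 UMIs in the same order. Kcnn4, a calcium-activated channel of immune cells, had 2, 1, 23 and 141 UMIs, and the two-pore gene Kcnk6 had 0, 0, 7 and 31. In the Sham myeloid nuclei Kcnk13 had 1 and 0 UMIs and the other genes 0. Most UMIs of these 4 genes in myeloid nuclei were thus from sMCAO ipsi, the library with most such nuclei.

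In fibroblasts Kcnk2 had 0 UMIs in both Sham libraries, 6 and 11 in MCAO contra, and 19 and 139 in MCAO ipsi. All 139 Kcnk2 UMIs of the vascular class in sMCAO ipsi were in fibroblasts, and its log2 fold change of 3.75 ± 1.14 SE in that class was not called (edgeR adjusted p = 0.0919). Kcnj8, the pore of a vascular channel opened when ATP falls, had 0 and 3 UMIs in endothelial nuclei of Sham, 6 and 4 in MCAO contra and 5 and 19 in MCAO ipsi. No reading of a change was made from these counts.

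**Figure D5:**
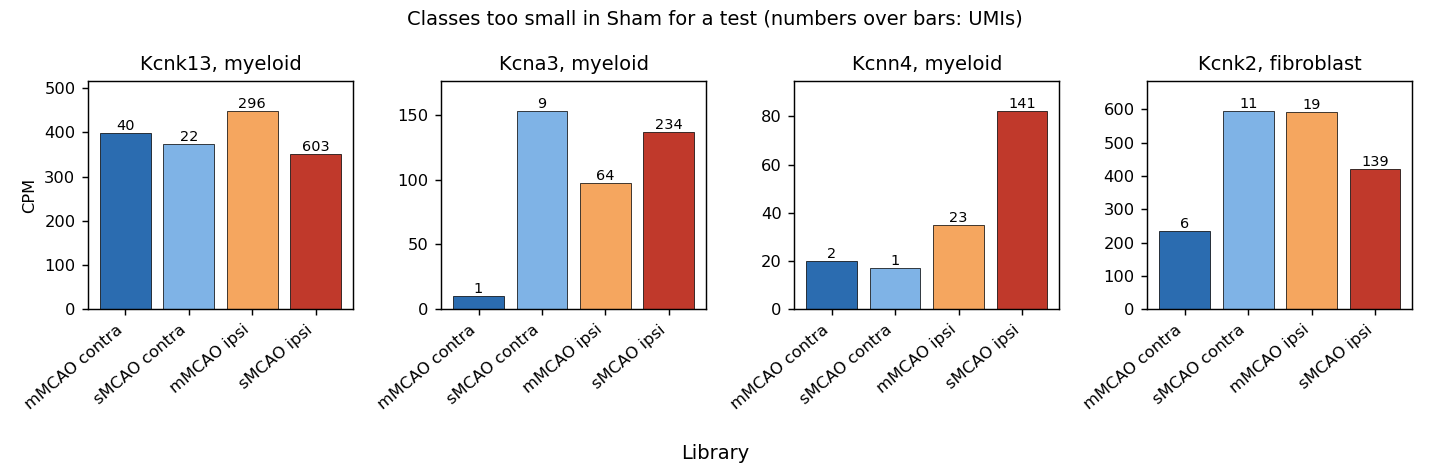
CPM of Kcnk13, Kcna3 and Kcnn4 in myeloid nuclei and Kcnk2 in fibroblasts in the 4 MCAO libraries, with UMIs over the bars. Kcnk13 lies between 352 and 449 CPM in all 4, while its UMIs run from 22 to 603.

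Between the contralateral hemisphere and Sham, 1 member was called with all 6 libraries. It was Kcnip4 in OPCs, with 2558 and 2373 CPM in Sham and 1140 and 1193 CPM in MCAO contra (log2 fold change -1.04 ± 0.19 SE, edgeR adjusted p = 0.00339), and it was at or below the free level in both groups. The shares of all genes called were 0.0428% in glutamatergic nuclei, 0.287% in medium spiny nuclei, 0.0606% in interneurons, 0.146% in OPCs, 0.0% in oligodendrocytes, 0.0396% in astrocytes and 0.0% in the vascular class. At an unadjusted p under 0.05 there were 14, 15, 10, 2, 11, 3 and 2 members in the same order, and DESeq2 called 1 in glutamatergic nuclei and 1 in OPCs. The count depended on whether the ipsilateral libraries were in the fit: with only the 2 groups compared it was 23 (18 lower and 5 higher), without mMCAO ipsi 25 and without sMCAO ipsi 28. The shares of all genes called in those fits are not given, so these counts are not read as a result about the members. The glial levels were lower in contra, beside the lower share of free neuronal RNA by the list given above. The summed CPM of all members in astrocytes was 10623 and 10530 in Sham and 6930 and 6998 in MCAO contra, and in oligodendrocytes 9923 and 9043 in Sham and 6322 and 6684 in MCAO contra. The median log2 fold change of the tested members was -0.76 in oligodendrocytes and -0.59 in astrocytes, where that of all genes was 0.00 and 0.02. With free RNA subtracted by the list in the glial and vascular classes, edgeR called 0 members there. At an unadjusted p under 0.05 there were then 4 members in OPCs, 7 in oligodendrocytes, 0 in astrocytes and 1 in the vascular class.

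Between the severe and the moderate ipsilateral library no test was possible, with 1 library each. The summed CPM of all members in sMCAO ipsi over mMCAO ipsi was 0.880 in glutamatergic nuclei (95% exact interval for counting error only 0.875 to 0.884), 1.06 in medium spiny nuclei (1.04 to 1.07) and 0.859 in interneurons (0.843 to 0.875). In the contralateral libraries the same ratio was 0.958, 0.981 and 0.931, and Sham R over Sham L gave 1.01, 0.989 and 0.958. Glutamatergic nuclei and interneurons thus had the lower sum on the severe side, by more than the other library pairs differed. In upper layer and layer 6 nuclei alone the ratio was nearer 1, at 0.921 and 0.948. In Lhx6 and Adarb2 interneurons it was 0.854 and 0.845. Upper layer and layer 6 nuclei numbered 501 and 516 in mMCAO ipsi and 182 and 267 in sMCAO ipsi. The part of this mix was not tested. Kcnip4 alone gave much of the summed CPM. Without it the summed CPM in mMCAO ipsi and sMCAO ipsi was 14634 and 12762 in glutamatergic nuclei and 11602 and 10702 in interneurons. In medium spiny nuclei it was nearly level, at 17339 and 17274 CPM. In glia the ratio was 0.810 in OPCs, 0.617 in oligodendrocytes and 0.599 in astrocytes, beside a free RNA share of 14.6% against 20.4%, 4.24% against 12.0% and 4.65% against 8.60%.

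Genes that work with potassium channels but are no Kcn genes were read from lists of pumps and cotransporters, HCN channels and channel partners. Against Sham, pumps and cotransporters were higher in 4 and lower in 1 of 44 gene and class tests, HCN channels lower in 4 of 14, and partners higher in 1 and lower in 12 of 45. Atp1b1, a sodium pump subunit, was higher in glutamatergic nuclei and in interneurons, by log2 fold changes of 0.68 ± 0.12 SE (edgeR adjusted p = 0.0155) and 0.66 ± 0.12 SE (edgeR adjusted p = 0.0142). In interneurons it was also higher in MCAO contra than in Sham (0.77 ± 0.12 SE, edgeR adjusted p = 0.018), and MCAO ipsi against contra gave log2 fold changes of -0.12 ± 0.11 SE in interneurons and 0.14 ± 0.12 SE in glutamatergic nuclei, neither called. In astrocytes the pump subunit Atp1b2 was higher, by 1.59 ± 0.28 SE (edgeR adjusted p = 0.00143). Abcc9, the sulfonylurea receptor that pairs with Kcnj8, was higher in glutamatergic nuclei, by 1.95 ± 0.34 SE (edgeR adjusted p = 0.0154). In medium spiny nuclei Dpp10, a partner of Kcnd pores, and Hcn2 fell by 1.38 and 0.73 on the log2 scale. Dpp10 fell by 1.14 in MCAO contra too (edgeR adjusted p = 0.00717) and differed between the sides by -0.25 ± 0.15 SE (edgeR adjusted p = 0.413), while Hcn2 was lower than in contra (-0.85 ± 0.18 SE, edgeR adjusted p = 0.0168). The other 11 lower partner calls and 3 lower HCN calls were in glial or vascular nuclei, beside the fall of free neuronal RNA, and were not tested after subtraction.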

How the data were processed

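Per the labels, single nuclei of rat brain were read with a droplet-based 5′ kit, and the authors counted UMIs with Cell Ranger 7.0.0 on mRatBN7.2, introns included. The deposited counts are raw and hold no removal of free RNA, filter or doublet removal. Nuclei with at least 500 UMIs, 250 to 5000 genes and at most 5% mitochondrial UMIs were kept. A Poisson likelihood over 183 marker genes assigned classes, and nuclei better explained by a mixture of a pair of classes were dropped as doublets; the thresholds were set after the data were seen. UMIs were summed per library and class with at least 20 nuclei in every library. The sums were tested with edgeR 4.0.16 (quasi-likelihood, TMM, filterByExpr, Benjamini-Hochberg over all genes), with DESeq2 1.42.0 as an alternative. Free neuronal RNA was scaled from neurons of the same library and subtracted. Code was tested on simulated data. The members and lists were chosen with earlier results of these data known.

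Genes named in the text are, per comparison, up to 8 called genes with the smallest p in each direction, for classes and types the 5 with the largest differences, and a fixed list of textbook channels. For classes and types, only genes with at least 20 UMIs in every library of a higher class or type were ranked. Others named in lists of 13 or fewer calls, in lists above the free level or in classes with no test were chosen after their values were seen, and the genes of the astrocyte state after the tests. Libraries held 33012945 to 52513380 UMIs. Intervals cover counting error only. Contra and ipsi libraries of the same severity come from the same rats, which is the pairing; the correlation of their deviations from the group means was 0.119 in glutamatergic nuclei, 0.196 in OPCs and -0.0848 to 0.0754 in the other classes. Some of the marker symbols were not used here, as they did not match the gene table. The comparison of Pvalb with Sst interneurons was not run, since every library needs 20 nuclei of each. Some genes are not reported here.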

Additional observations from a re-analysis of the deposited data

Results flagged for a closer look

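The fold change of MCAO ipsi against Sham differed between classes, by a test of the interaction itself, for 8 members. Between OPCs and astrocytes the differences on the log2 scale (OPC minus astrocyte) were 3.36 for Kcnq5, 2.72 for Kcnh7, 1.96 for Kcnip4, 1.33 for Kcnq3 and 3.48 for Kcnh1, beside a share of free neuronal RNA that fell in both classes, and Kcnh1 rested on 2 to 27 UMIs a library in OPCs. Between glutamatergic and medium spiny nuclei (glutamatergic minus medium spiny) they were 1.16 for Kcnj3, 1.01 for Kcnc2 and 0.80 for Kcnj6.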

How the results depend on the processing

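In the comparison with Sham, 50 gene and class pairs were called. The count was 31 with only the 2 groups compared, 76 with no filter on low counts, 24 with free neuronal RNA subtracted and 29 with the share by Rbfox3, and 9 to 92 without 1 library. Of these, calls higher in MCAO ipsi numbered 0 with all libraries, 6 with no filter, 8 without mMCAO ipsi and 1 each without sMCAO contra, without sMCAO ipsi, without the deepest nuclei and with free RNA subtracted. By class, with no filter it was 16 in glutamatergic nuclei, 2 in interneurons, 20 in oligodendrocytes and 6 in the vascular class. With only the 2 groups compared it was 0 in oligodendrocytes and 0 in the vascular class. DESeq2 called 5 in medium spiny nuclei and 2 in OPCs. Upper layer nuclei alone gave 6, layer 6 nuclei 2, and D1 and D2 nuclei 4 each. A doubled gap in the gate gave 0 in the vascular class. Leaving out the deepest nuclei gave 2 in OPCs, 8 in oligodendrocytes and 0 in the vascular class. Free neuronal RNA was subtracted only in the glial and vascular classes. The counts of 24 and 29 thus hold 10 glutamatergic and 9 medium spiny calls as counted. With free RNA subtracted, the count was 2 in OPCs, 1 in oligodendrocytes, 2 in astrocytes and 0 in the vascular class by the list, and 2, 3, 5 and 0 by Rbfox3. Fewer members were then tested, by the list 18, 19, 12 and 1 in the same order. Without 1 library it was 0 to 22 in glutamatergic nuclei, 5 to 11 in medium spiny nuclei, 0 to 5 in interneurons, 1 to 7 in OPCs, 0 to 28 in oligodendrocytes, 3 to 15 in astrocytes and 0 to 6 in the vascular class; a lone library of a group was assumed to vary like the other groups. Against contra the count was 21, and it was 11 by DESeq2, 48 with no filter, 13 with the share by Rbfox3 and 4 to 69 without 1 library. For contra against Sham it was 1, and it was 2 by DESeq2, 23 with only the 2 groups compared, 17 with no filter, 0 with either subtraction, 0 without the deepest nuclei and 0 to 28 without 1 library. The 8 interaction calls became 4 by the list, 5 by Rbfox3 and 3 to 20 without 1 library. No subtraction was made for the pair of glutamatergic and medium spiny nuclei. The calls between OPCs and astrocytes alone went from 5 to 1 by the list and 2 by Rbfox3. With the share by Rbfox3 the difference of Kcnip4 between OPCs and astrocytes turned to -5.05 (edgeR adjusted p = 0.316), where the subtraction left few UMIs. The severe over moderate ratio in glutamatergic nuclei was 0.884 with a doubled gap. The mean share of free RNA in Sham was 24.5% to 30.4% in astrocytes and 24.9% to 29.3% in oligodendrocytes without 1 gene of the list. Calls between classes numbered 200 to 241 without 1 library (242 with all) and those between neuron types 38 to 44 (40 with all). The replicate block of rat pools changed the count against contra from 0 to 2 in oligodendrocytes and from 8 to 9 in astrocytes and no other count. Apart from the subtractions, the cause of these changes was not tested. Where no share of all genes called is given for a setting, its count is not read as a result about the members. Sham held 58 and 49 OPC nuclei and 43 and 32 vascular nuclei, which limits those classes.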
